A study of Mus musculus with 12 samples.

Results

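The genes described here are 9 markers of striatal projection neurons, the GABAergic output cells of the caudate-putamen and nucleus accumbens, as they were read in RNA from piriform cortex: Ppp1r1b, Drd1, Drd2, Adora2a, Pde10a, Rgs9, Adcy5, Gng7 and Pde1b. They were chosen by name, as the rows of the count table that carry these symbols, and are 9 of 48795 genes. All 9 were found and all 9 passed the expression filter, which kept 17725 genes. The libraries came from 6 mice heterozygous for the Q140 allele of Htt, a knock-in with an expanded CAG repeat used as a model of Huntington's disease, and from 6 wild types (WT). All animals were 12 months old and on a C57BL/6 background, with 3 females and 3 males of each genotype, and each library was a separate animal. The question put to these genes was whether they differed with the Q140 allele, and whether they rose and fell together from animal to animal, as genes do when differing amounts of a neighbouring tissue enter a dissection.

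Striatal projection neurons receive dopamine and read it through cyclic AMP. Cells of the direct pathway carry the D1 dopamine receptor, which activates adenylyl cyclase, and cells of the indirect pathway carry the D2 dopamine receptor, which inhibits it, together with the adenosine receptor encoded by Adora2a, which activates it. The striatum lies close to the piriform cortex, with the olfactory tubercle, itself a striatal territory, beside it at the base of the brain. Loss of transcripts of these genes in the striatum is a well known feature of Huntington's disease and its mouse models.

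Total counts ranged from 19587208 to 35198602 per animal, so that 3 counts, taken as the floor, stood for 0.0852 to 0.153 CPM (counts scaled to TMM-adjusted library size). Htt itself had 152 ± 8.19 CPM in Q140 animals and 196 ± 8.15 CPM in WT animals (SD, n = 6 each), and fell in Q140 animals (edgeR quasi-likelihood test, log2 fold change -0.37, SE 0.0428, adjusted p = 0.000203). Markers of cortical excitatory neurons were abundant in every library, with a sum over 12 genes of 5154 to 5707 CPM in Q140 animals and of 6340 to 8033 CPM in WT animals. The sixth wild type (WT 6) stands apart for the genes described here and is also the only animal with the name prefix FMQ, so that the animal and its prefix cannot be told apart. Genotype calls and list correlations that rest on it are given with and without it.

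The 9 genes were all detected in all 12 libraries. On the length-scaled FPKM scale the most abundant was Ppp1r1b, which encodes DARPP-32, the phosphoprotein that turns dopamine signals into inhibition of protein phosphatase 1, with 121 ± 38.6 FPKM (SD, n = 12). Pde1b, a calcium- and calmodulin-activated cyclic nucleotide phosphodiesterase, followed with 86.9 ± 19.6 FPKM, Gng7, the G protein gamma subunit that pairs with the alpha subunit Golf in striatal cells, with 56.8 ± 13.8 FPKM, and Adcy5, the main striatal adenylyl cyclase, with 41.1 ± 8.94 FPKM. Lower were the cyclic nucleotide phosphodiesterase Pde10a (16 ± 7.62 FPKM), the G protein regulator Rgs9 (13.5 ± 7.12 FPKM) and the 3 receptors Drd1 (10.3 ± 3.98 FPKM), Adora2a (10.3 ± 7.23 FPKM) and Drd2 (8.35 ± 5.29 FPKM). Of the 8 pairs of neighbours in this order, 7 differed within animals (exact two-sided sign-flip test on log2 FPKM, adjusted p between 0.00130 and 0.0117 over the 8 pairs, where the smallest raw p possible is 0.000488). The exception was Drd1 and Adora2a, with Drd1 higher in 8 of 12 animals (adjusted p = 0.173).

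On GRCm38 with GENCODE M21, Ppp1r1b lies at chr11:98348404-98357796 on the plus strand and Rgs9 on the same chromosome at chr11:109225355-109298129, on the minus strand. Drd1 lies at chr13:54051183-54055705 (minus), Drd2 at chr9:49340627-49408177 (plus), Adora2a at chr10:75316877-75334784 (plus) and Gng7 at chr10:80948624-81014945 (minus). Pde10a lies at chr17:8525372-8986648, Adcy5 at chr16:35154877-35305738 and Pde1b at chr15:103503034-103530052, all on the plus strand. All are protein-coding, and counts were taken over genes as the deposited table has them. Only Ppp1r1b shares exon sequence with another annotated gene, 460 bases with 1700003D09Rik on the opposite strand, and that gene had a mean of 5 reads per library.

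The receptors Drd2 and Adora2a had the widest range between animals. Drd2, the D2 receptor of indirect pathway cells, had a lowest value of 5.22, a median of 13.4 and a highest of 21.2 CPM in Q140 animals, against 0.947, 10.5 and 27.2 CPM in WT animals. Adora2a, the adenosine receptor of the same cells, had 11.7, 22.1 and 33.9 CPM in Q140 animals, against 1.89, 24.7 and 62.5 CPM in WT animals. For both, WT 6 was the lowest of all 12 animals and WT 2 the highest, and the Q140 animals lay within the WT range. The ratio of the highest to the lowest WT animal was 28.8 for Drd2 and 33.0 for Adora2a, against 4.06 and 2.89 among Q140 animals. Drd1, the D1 receptor of direct pathway cells, had 21, 34.3 and 44.6 CPM in Q140 animals, against 13.2, 41.3 and 64.3 CPM in WT animals, again lowest in WT 6 and with overlapping groups.

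Among the genes that act on cyclic AMP or its targets, Ppp1r1b had a lowest value of 232, a median of 343 and a highest of 363 CPM in Q140 animals, against 181, 393 and 558 CPM in WT animals. Pde10a, whose product breaks down cyclic AMP and cyclic GMP in projection neurons, had 105, 166 and 223 CPM in Q140 animals, against 65.6, 220 and 407 CPM in WT animals. Both had WT 6 as the lowest animal and WT 5 as the highest, and all 6 Q140 animals of each lay within the WT range. Pde1b spanned 210 to 257 CPM around a median of 239 in Q140 animals, against 187 to 379 CPM around 268 in WT animals. Adcy5 spanned 223 to 333 CPM around a median of 284 in Q140 animals, against 197 to 404 CPM around 293 in WT animals. These last genes moved over a narrower range than the receptors, by 2.03 times among WT animals for Pde1b and 2.05 times for Adcy5.

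Rgs9, which encodes a GTPase-activating protein that shortens dopamine receptor signalling in the striatum, had 43.4, 80.2 and 97.6 CPM as its lowest, median and highest values in Q140 animals, against 17.7, 89.4 and 181 CPM in WT animals. Gng7 had 157, 248 and 279 CPM in Q140 animals, against 137, 180 and 274 CPM in WT animals. Gng7 was the only one of the 9 with its highest value in a Q140 animal (Q140 2) and the only one whose Q140 values were not all within the WT range. The SD between animals was larger in WT animals than in Q140 animals for 9 of 9 genes, both with WT 6 and without it, a difference in spread that was not tested.

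**Figure D1:**
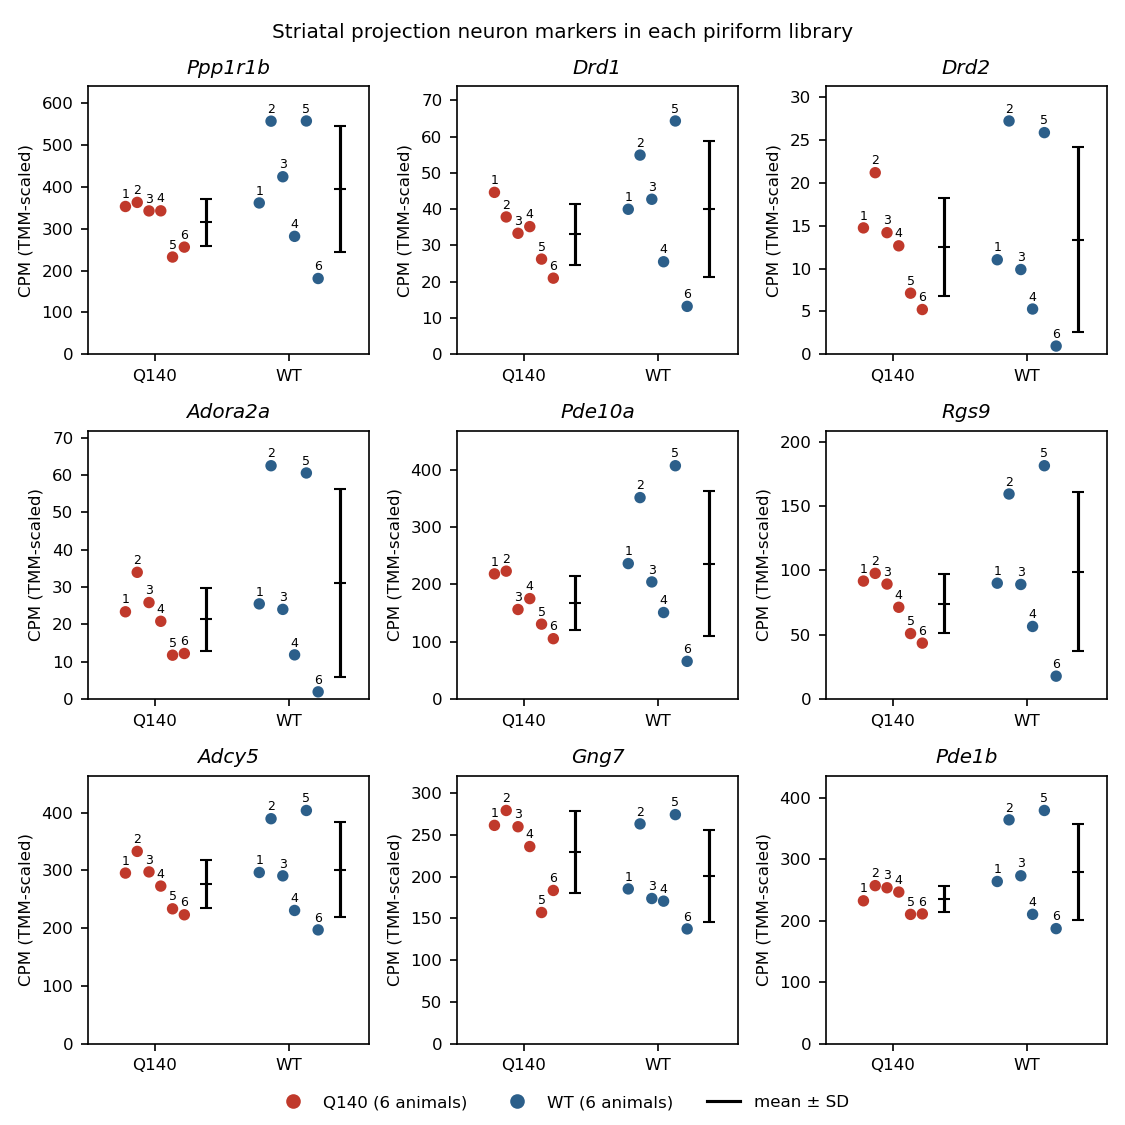
Each panel shows 1 gene in CPM on a linear axis from 0, with 1 point per animal numbered by replicate, Q140 left of WT, and the mean ± SD beside each group. WT 6 is the lowest point in all 9 panels, and WT 2 or WT 5 the highest in 8 of 9.

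Ranked by the SD of log2 CPM over all 12 animals among 15487 genes with a mean of at least 1 CPM, Adora2a stood at percentile 99.8, Drd2 at 99.8 (SD 1.32 and 1.30), Rgs9 at 99.2, Pde10a at 98.6 and Drd1 at 98.2. Ppp1r1b stood at 96.3, Gng7 at 91.3, Adcy5 at 87.5 and Pde1b at 86.7. The receptors of indirect pathway cells were thus among the most variable genes of the library set, and the enzymes Adcy5 and Pde1b, which cortical neurons are also known to express, were the least variable of the 9. This ranking includes WT 6 and was not computed without it. The SD of log2 CPM was 0.742 in Q140 and 1.76 in WT animals for Drd2, and 0.610 and 1.86 for Adora2a.

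In Q140 animals against WT animals, none of the 9 genes passed the test. The comparison called 1982 of 17725 genes at an adjusted p below 0.05 (11.2%), 4.50% higher and 6.69% lower. None of the 9 were called by edgeR, by DESeq2 or by limma voom. At an unadjusted p below 0.05 in edgeR stood 0 of the 9, against 4728 of all genes (26.7%). In 8 of 9 genes the estimate was below 0, where 9086 of the 17725 genes tested had one above 0. The median log2 fold change was -0.29 over the 9 and 0.0045 over all genes tested. The 9 moved together between animals, so their signs are not independent of each other. With the animal number as a block, 3 of 9 stayed below 0 (Ppp1r1b, Drd1 and Pde10a). That block fit compares genotypes only within numbers 161 (Q140 3, Q140 5 and WT 4) and 150 (Q140 4 and WT 3). The other numbers hold 1 genotype each. Drd2 turned above 0 under 10 of 26 alternatives. The estimates and their SE are wide: the log2 fold change of Adora2a was -0.57 with a 95% interval of -1.72 to 0.58 (SE 0.536, adjusted p = 0.535), and Drd2 one of -0.14 (SE 0.527, adjusted p = 0.895), with an interval of -1.27 to 0.99. At this spread, differences in the receptors of about that size were not detectable.

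The narrowest intervals were those of Pde1b (log2 fold change -0.25, 95% interval -0.57 to 0.07, adjusted p = 0.305) and Adcy5 (-0.13, -0.47 to 0.21, adjusted p = 0.641). Pde10a stood at -0.51 (SE 0.337, adjusted p = 0.357), Rgs9 at -0.43 (SE 0.403, adjusted p = 0.535), Ppp1r1b at -0.33 (SE 0.224, adjusted p = 0.369) and Drd1 at -0.29 (SE 0.293, adjusted p = 0.562). Gng7 alone had an estimate above 0, at 0.18 (SE 0.174, adjusted p = 0.542). In bulk tissue, fewer cells of a type and less RNA per cell cannot be told apart.

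The call on 2 of these genes rested on WT 6. Without it, the mean of Ppp1r1b in WT animals was 437 CPM, and its log2 fold change was -0.51 (SE 0.147, adjusted p = 0.0455). Pde10a, with a WT mean of 270 CPM without WT 6, stood at -0.76 (SE 0.225, adjusted p = 0.0494). Both then passed as lower in Q140 animals, just inside the threshold. That fit called 1706 of 17826 genes tested (9.57%), 1061 of them lower. The other 7 of the 9 did not pass (adjusted p between 0.0861 for Pde1b and 0.825 for Gng7). Leaving out any of the other 11 animals gave 0 calls among the 9.

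Within females, the comparison of Q140 with WT animals called 1249 of 17725 genes (7.05%) and 0 of the 9. In females the estimates lay on both sides of 0, from -0.19 for Adora2a to 0.43 for Gng7 (SE 0.754 and 0.234). WT 6, the lowest animal for all 9 genes, is 1 of the 3 WT females, so these estimates lean on it. Without WT 6 the comparison in females again called 0 of the 9, and its estimates are not reported here. Within males it called 248 genes (1.40%) and 0 of the 9, with all 9 estimates below 0, between -0.07 for Gng7 and -1.02 for Pde10a. These signs are not independent either, since the 9 moved together. Pde10a in males had 156, 131 and 105 CPM in Q140 animals 3, 5 and 6, against 236, 151 and 407 CPM in WT animals 1, 4 and 5. The groups overlapped by 1 value each, and the log2 fold change of -1.02 (SE 0.452) did not pass (adjusted p = 0.280), with -0.57 when WT 5 was left out.

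The difference of the Q140 effect between males and females did not pass for any of the 9 (estimates of males minus females between -1.01 and -0.18, adjusted p between 0.641 and 0.872), in a test that called 0 of 17725 genes at an adjusted p below 0.05 (0%). Of all genes, 1633 had an unadjusted p below 0.05 there, and of the 9 none. WT 6 is among the WT females here too, and without it again 0 of the 9 passed. Males against females, with genotype as a covariate, called 116 genes (0.654%) and again 0 of the 9, with log2 fold changes between -0.35 for Drd2 and -0.04 for Pde1b.

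The 9 genes rose and fell together from animal to animal. With the mean of each genotype subtracted, the 36 pairs had Pearson correlations of log2 CPM between 0.84 and 0.994 over 12 animals, with a median of 0.955, and Spearman correlations between 0.811 and 0.979. Each pair had a permutation p, from 100000 permutations within genotype, with adjusted values over the 36 pairs of at most 0.000700 for Pearson's and 0.00556 for Spearman's correlation; the smallest raw p these permutations can give is 1e-05. Joint movement of striatal markers between these animals was known when the genes were chosen, so these values describe its size and are not independent evidence of it. Transcripts carried over from striatal tissue and transcripts made by cells of the piriform cortex cannot be told apart in these libraries.

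The closest pair was Drd2 and Rgs9 (r = 0.994), followed by Drd2 and Adora2a (0.993), which mark the same cells. Drd1 and Drd2, which mark the direct and the indirect pathway, moved together almost as closely (r = 0.97). Gng7 was the least tied to the rest, with a median r of 0.872 with the other 8, and its pair with Drd1 was the lowest of all (0.84). All 36 correlations remained above 0.8 without WT 6 (0.831 to 0.994) and without the 2 animals farthest from the median of the gene on the x axis (0.818 to 0.995). Within Q140 animals alone they ranged from 0.712 to 0.989, and within WT animals alone from 0.893 to 1.000, over 6 animals each.

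**Figure D2:**
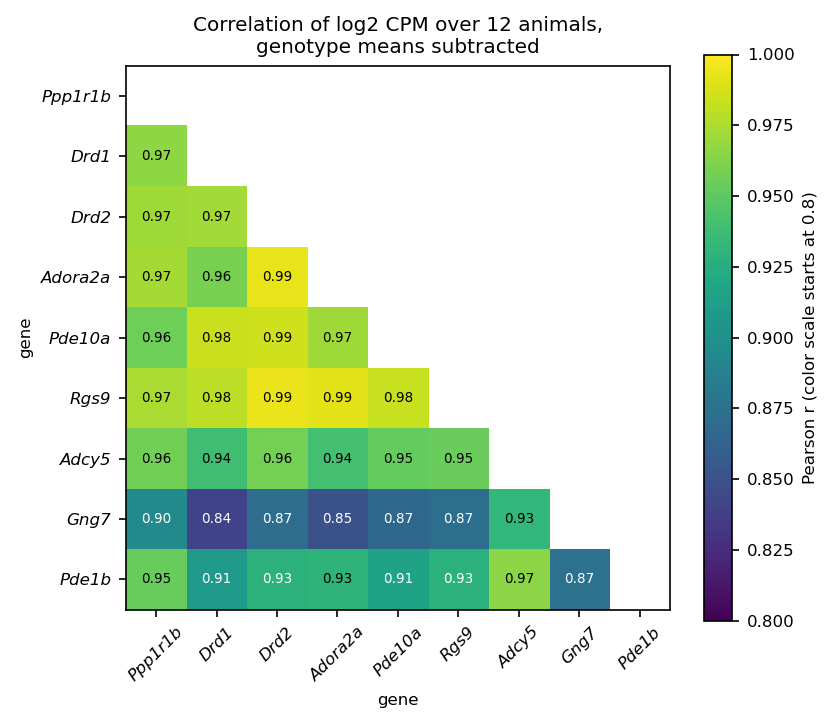
The lower triangle shows Pearson's r of log2 CPM for each of the 36 pairs over 12 animals after each genotype's mean was subtracted; the color scale starts at 0.8. The row and column of Gng7 hold the lowest values, and Drd2, Adora2a and Rgs9 the highest.

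The order of the animals can be read from 1 value each. As the mean log2 CPM of the 9 relative to each gene's own mean, Q140 animals 1 to 6 stood at 0.24, 0.39, 0.15, 0.06, -0.45 and -0.56, and WT animals 1 to 6 at 0.17, 0.88, 0.14, -0.42, 0.96 and -1.55. WT 5 and WT 2 were thus the animals richest in these transcripts, WT 6 the poorest, and the Q140 animals lay between them. Over the 12 animals this mean had an r of 0.27 with the total count and of -0.09 with the mitochondrial share of counts. No name prefix covers 6 animals, so the correlations were not computed within prefixes; RFckQ covers 1 Q140 and 4 WT animals, RFQ 3 Q140 animals and 1 WT animal.

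Straight lines extended to an Adora2a of 0 met the axis at different levels for the different genes. In a straight-line fit of CPM on Adora2a CPM over the 12 animals, chosen after the values were seen, the intercept was 13.6% of the gene's mean for Drd2, 26.2% for Rgs9, 34.7% for Pde10a and 49.3% for Drd1. It was 55.9% for Ppp1r1b, 68.3% for Pde1b, 69.5% for Adcy5 and 74.6% for Gng7. The fits left little scatter, with R² between 0.847 and 0.963, other than for Gng7 (0.562), and without WT 6 the intercepts moved by less than 3 percentage points. Genotype means were not subtracted in these fits. Within genotypes, Gng7 and Adora2a had an r of log2 CPM of 0.964 in Q140 animals and 0.905 in WT animals. In WT 6 itself, where Adora2a had 1.89 CPM and Drd2 0.947 CPM, Drd1 still had 13.2 CPM, so that the ratio of Drd1 to Drd2 was 13.9 there, against 1.79 to 4.02 in Q140 animals and a median of 3.97 in WT animals. The ratio of Gng7 to Adcy5, whose products are a subunit and a target of the Golf protein, was 0.673 to 0.885 in Q140 animals and 0.598 to 0.740 in WT animals, 2 ranges that overlap and were not tested.

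**Figure D3:**
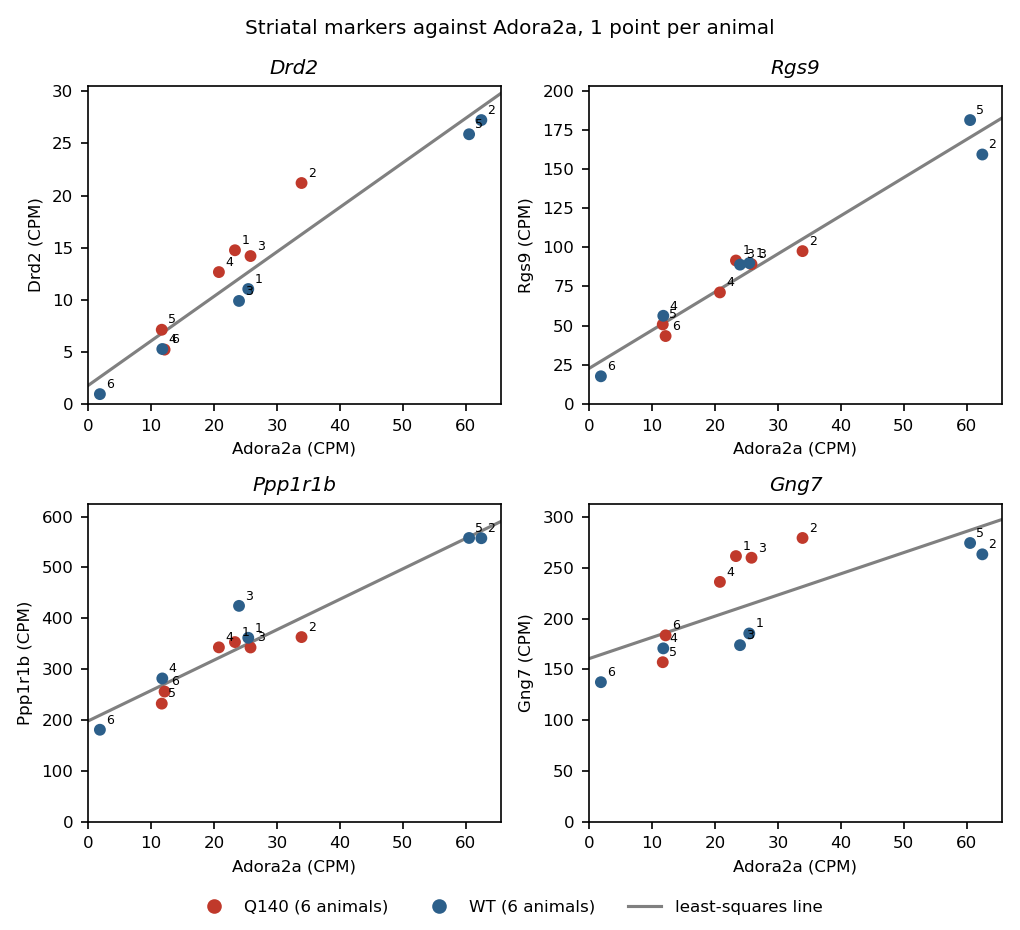
Each panel plots the CPM of 1 gene against the CPM of Adora2a, with 1 numbered point per animal, linear axes from 0 and the least-squares line over the 12 animals. The lines of Drd2 and Rgs9 have intercepts of 13.6% and 26.2% of their means, and those of Ppp1r1b and Gng7 have 55.9% and 74.6%.

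The bases before the transcription starts are shown for 3 of the 9: Drd2 and Rgs9, the closest pair, and Pde1b, the gene with the smallest spread. Any link between these sequences and the joint movement of the genes was not tested. The 250 bases upstream of the RefSeq start are given 5′ to 3′ on the gene's strand (GRCm38.p6), at chr9:49340153-49340402 (plus) for Drd2, chr11:109298182-109298431 (minus) for Rgs9 and chr15:103502784-103503033 (plus) for Pde1b, with capitals marking the GC box GGGCGG or the TATA box TATAAA on either strand.
Drd2: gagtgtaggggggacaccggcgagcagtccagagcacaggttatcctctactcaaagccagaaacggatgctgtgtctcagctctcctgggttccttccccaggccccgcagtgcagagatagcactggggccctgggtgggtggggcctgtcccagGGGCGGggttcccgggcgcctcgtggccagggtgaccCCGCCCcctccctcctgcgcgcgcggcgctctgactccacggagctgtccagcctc
Rgs9: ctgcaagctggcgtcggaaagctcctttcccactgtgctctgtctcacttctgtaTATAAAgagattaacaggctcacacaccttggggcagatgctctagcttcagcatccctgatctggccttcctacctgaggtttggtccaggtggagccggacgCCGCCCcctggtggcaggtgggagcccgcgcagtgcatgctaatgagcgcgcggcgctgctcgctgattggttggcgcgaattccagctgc
Pde1b: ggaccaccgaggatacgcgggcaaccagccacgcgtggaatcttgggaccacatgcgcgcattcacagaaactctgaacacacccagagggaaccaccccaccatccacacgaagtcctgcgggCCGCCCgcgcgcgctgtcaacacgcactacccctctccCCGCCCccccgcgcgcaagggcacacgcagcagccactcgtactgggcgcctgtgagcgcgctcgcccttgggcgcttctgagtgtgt

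The RefSeq table held starts for 7 of the 9 genes, 12 windows in all, and not for Ppp1r1b and Adora2a. Of these 12 windows, 7 held a GC box, at least 1 for each of the 7 genes, against 32.7% of 32851 windows of the same length. The TATA box was in the Rgs9 window only and is in 12.4% of all windows. The cyclic AMP response element TGACGTCA was in none of the 12 and is in 1.55% of all. The Egr1 site GCGGGGGCG was also in none of the 12 and is in 2.57% of all. Both strands were searched, and a stretch could count for more than 1 motif. The windows of the 3 genes shown are rich in G and C, at 68.8% for Drd2, 59.6% for Rgs9 and 67.2% for Pde1b, against a median of 52.4% over all windows.

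Genes outside the 9 moved with them. Of 15478 other genes with a mean of at least 1 CPM, 89 had an r of at least 0.9 with the mean of the 9 over the 12 animals, 81 did so without WT 6, and 55 did so both ways. Among the 10 highest were Lrrc10b (r = 0.997), Zfp503 (0.996), Syt6 (0.996), Slc35d3 (0.987), Scube3 (0.985), Dlx6 (0.984), Six3 (0.984), Sh3rf2 (0.983) and Scn4b (0.982). They include Zfp503, a zinc-finger protein of the developing striatum, Six3 and Dlx6, homeobox genes of forebrain GABAergic cells, and Scn4b, a sodium channel beta subunit. Six3 shares exon sequence with Six3os1 on the opposite strand, which leaves its value uncertain. Of the 89, 3 passed in Q140 against WT, in a comparison that called 11.2% of all genes: Penk and Pdyn, which are described below, and Slc25a13, a mitochondrial aspartate-glutamate carrier (log2 fold change 0.55, adjusted p = 0.0492, r = 0.903); they are named because they are few.

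The gene most like the marker was Zfp503 for Ppp1r1b (r = 0.990) and Adora2a (0.989), Lrrc10b for Drd2 (0.996) and Rgs9 (0.994), and Gprin3 for Pde10a (0.996). Adcy5 was closest to Rasd2 (0.982), a small GTPase of the striatum, and Gng7 to the calcium channel subunit Cacna2d2 (0.953). At the other end, 25 genes had an r of -0.9 or lower, led by Rhbdd2 (-0.962), Pygo1 (-0.955), B3gat1 (-0.952), Tmem159 (-0.951) and Cmtm4 (-0.946). The SD of log2 CPM of these 5 was between 0.0673 and 0.242, small beside that of the receptors. These likenesses are descriptions over the 12 animals and share their libraries and scaling.

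The mean of a separate list of 24 other striatal projection neuron markers followed that of the 9 with an r of 0.996 (0.989 without WT 6). Not every gene did so singly. Of 23 with a mean of at least 1 CPM, 12 had an r of at least 0.9 with the 9. Lower values included Chrm4 (0.725), Tmem158 (0.716), Dclk3 (0.691), Ptpn5 (0.610) and Ebf1 (0.573). In Q140 against WT animals, 4 of the 24 fell, 0 rose and 20 did not pass, where 6.69% of all genes tested were called lower, with a median log2 fold change of -0.12 against 0.0045 over all genes. Penk, the enkephalin precursor of indirect pathway cells, had 135 CPM in Q140 animals and 270 CPM in WT animals on average, a log2 difference of -1.02 (SE 0.236) at an adjusted p of 0.0141, and Pdyn, the dynorphin precursor of direct pathway cells, had 8.55 CPM in Q140 animals and 17 CPM in WT animals (-1.02, SE 0.267, adjusted p = 0.0269). Chrm4, the M4 muscarinic receptor, fell by 0.37 (log2, SE 0.111) at an adjusted p of 0.0466. Rgs14, an R12-family G protein regulator that is also abundant in cortex and hippocampus, fell by 0.53 (SE 0.0556, adjusted p = 0.000112), with an r of -0.34 with the 9.

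Penk and Pdyn had an r of 0.929 each with the 9 and passed, where the 9 did not, a contrast that was not itself tested. Penk ranged from 88.1 to 180 CPM in Q140 animals and from 150 to 390 CPM in WT animals, so that even WT 6, with 150 CPM, lay within the Q140 range. Pdyn ranged from 4.66 to 12.6 CPM in Q140 animals and from 8.65 to 26.3 CPM in WT animals. In WT 6, where Drd2 had 0.947 CPM and Adora2a 1.89 CPM, Penk still had 150 CPM and Pdyn 8.65 CPM. Which cells made these 2 transcripts was not tested, so their fall cannot be assigned to striatal cells. Scn4b, with 70.6 CPM in Q140 animals and 158 CPM in WT animals, had a log2 fold change of -1.20 and did not pass (SE 0.433, adjusted p = 0.0936). Foxp2 and Isl1, transcription factors of striatal cells, had estimates above 0, at 0.68 and 0.83, and did not pass (adjusted p = 0.299 and 0.283).

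The calls on the 9 changed when the mean of other striatal markers was added to the fit. With the mean of the 24 other striatal markers as a covariate, 5 of the 9 passed: Ppp1r1b (-0.25), Pde10a (-0.33), Rgs9 (-0.17) and Pde1b (-0.22) were lower and Drd2 (0.36) higher in Q140 animals, among 2580 genes called in all (14.6%). The other 4 did not pass: Drd1 (-0.16, adjusted p = 0.139), Adora2a (-0.04, adjusted p = 0.824), Adcy5 (-0.10, adjusted p = 0.207) and Gng7 (0.20, adjusted p = 0.138). The SE of Adora2a was 0.0966 with this covariate, against 0.536 without one. Since 4 of the 24 markers fell in Q140 animals, the covariate is not independent of the comparison and does not hold the level of striatal transcripts equal. With the mean of the 20 that did not pass as the covariate, Drd2 stood at 0.0599 (adjusted p = 0.653), so its call as higher was lost. Those 20 were picked by the outcome of the same test and support no call.

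**Figure D4:**
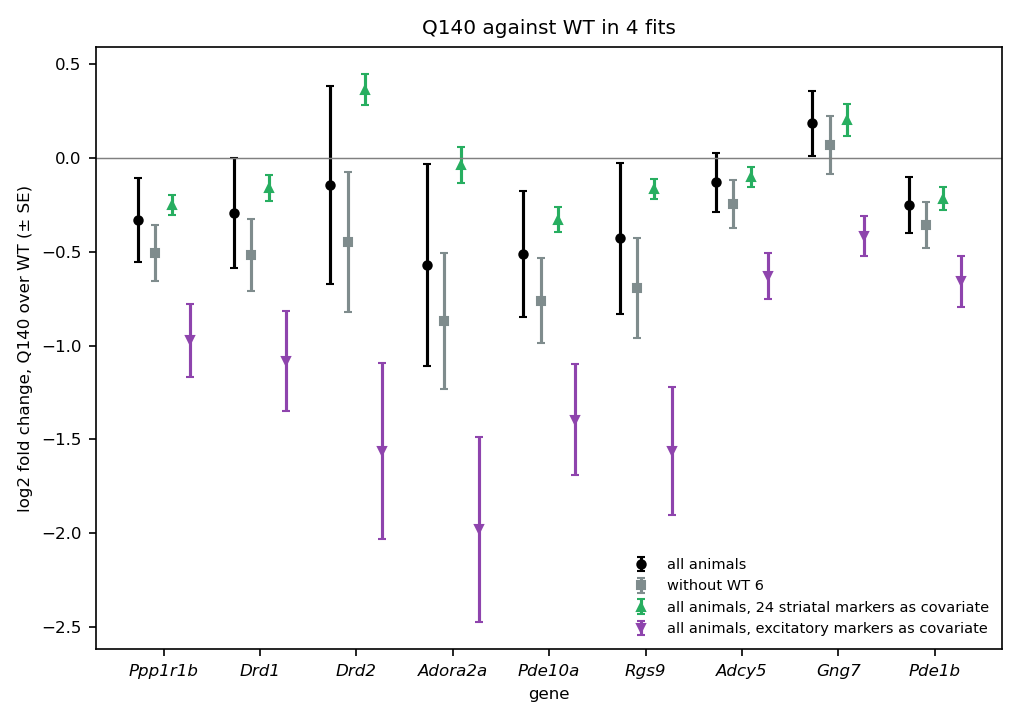
For each gene the log2 fold change of Q140 over WT animals is shown with its SE in 4 fits: all 12 animals, without WT 6, and all 12 with the mean of the 24 other striatal markers or of the 12 excitatory markers as a covariate. With the 24 striatal markers 4 genes passed below 0 and Drd2 above it, and with the excitatory markers all 9 estimates lay below 0. The Drd2 call was lost when the 4 striatal markers that fell were left out of the covariate, a fit not shown.

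Markers of other cells moved with the 9 as well. The 6 markers of cholinergic neurons, the interneurons of the striatum and projection cells of the basal forebrain, had a list mean with an r of 0.965 with the 9 (0.949 without WT 6). Their summed level was 5.46 to 23.5 CPM in Q140 animals and 0.980 to 19.9 CPM in WT animals, with WT 6 the lowest, and no marker was at 0 in all libraries. Chat, which makes acetylcholine, had 1.44 to 5.80 CPM in Q140 animals and 0.304 to 4.88 CPM in WT animals. The developmental factors Gbx2 and Lhx8 had no read in WT 6, where 3 counts stand for 0.0983 CPM. None of the 6 passed in Q140 against WT animals, although all 6 estimates were above 0 (median 0.61), opposite in sign to 8 of the 9; the part of these cells in the values of the 9 was not tested.

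The 12 markers of cortical excitatory neurons went the other way between animals, with an r of -0.806 (-0.765 without WT 6), and were highest in WT 6 (8033 CPM). In Q140 against WT animals, 6 of the 12 fell, 0 rose and 6 did not pass, where 6.69% of all genes tested were called lower. Those that fell include the vesicular transporters Slc30a3 (-0.57, adjusted p = 0.000712) and Slc17a7 (-0.34, adjusted p = 0.00330) and the kinase Camk2a (-0.42, adjusted p = 0.00295). With the mean of this list as a covariate, 5 of the 9 passed as lower in Q140 animals, Ppp1r1b (-0.97), Pde10a (-1.40), Rgs9 (-1.56), Adcy5 (-0.63) and Pde1b (-0.66), among 363 genes called in all (2.05%), and Gng7 turned to -0.42 (adjusted p = 0.0553). Since 6 of its genes fell in Q140 animals, this covariate is not independent of the comparison.

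Claustrum and endopiriform markers, 5 genes of the tissue that borders the piriform cortex on its deep side, had an r of -0.762 with the 9 over 12 animals and of -0.43 without WT 6, in which their sum was 264 CPM, against 79.6 to 106 CPM in Q140 animals and a median of 124 CPM in WT animals. Of them Ntng2, a netrin-G cell adhesion protein, fell (-0.64, adjusted p = 0.0487) and 4 did not pass, where 6.69% of all genes tested were called lower. Ntng2 shares exon sequence with 6530402F18Rik on the same strand, and its value is uncertain. The claustrum marker Nr4a2 had 13.6 to 23.7 CPM in Q140 animals and 9.42 to 88.8 CPM in WT animals, lowest in WT 5 and highest in WT 6, the reverse of their places for the 9. Meningeal markers, which also varied widely, had an r of 0.0386 (-0.0532 without WT 6). Oligodendrocyte markers had an r of 0.598, which was 0.166 without WT 6, and microglial markers one of -0.431, which was -0.162 without it. Vascular markers stood at 0.17 (0.0157 without WT 6), choroid plexus markers at 0.249 (0.421), interneuron markers at -0.172 (0.135, so that the sign turned) and astrocyte markers at 0.0738 (0.026).

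**Figure D5:**
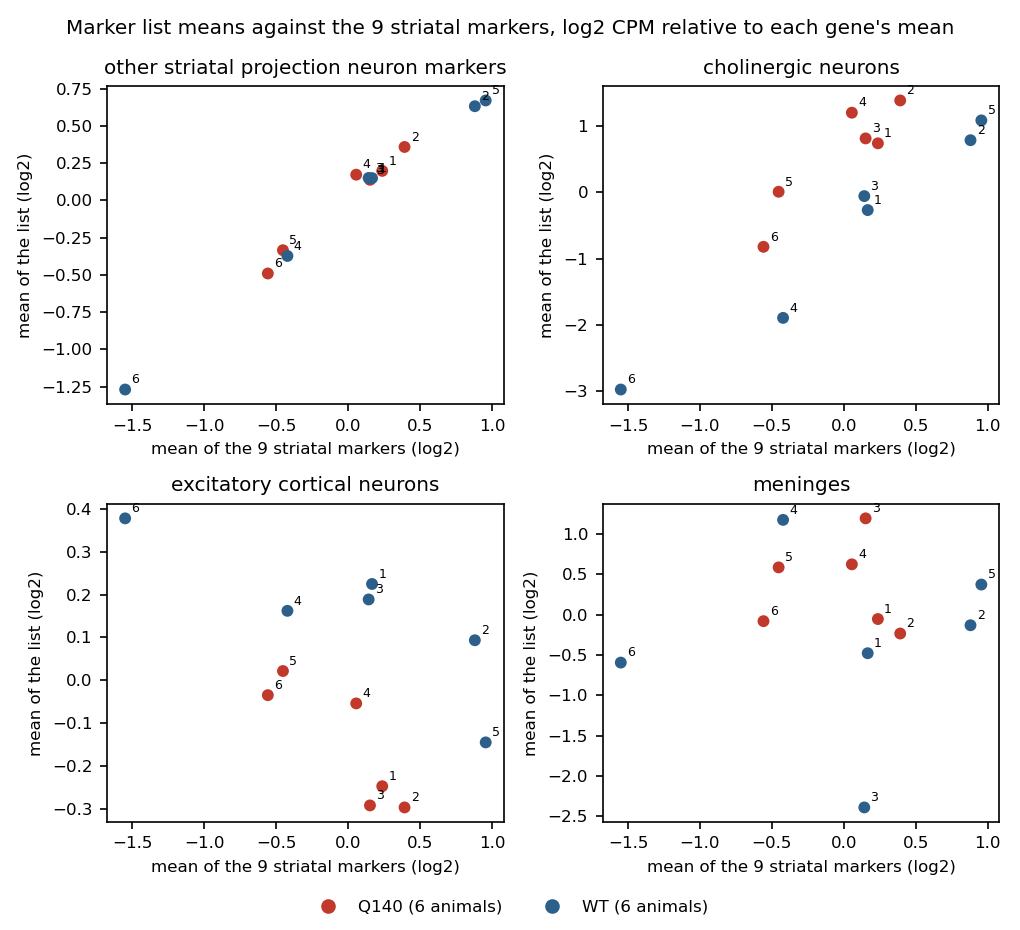
Each panel plots the mean log2 CPM of a marker list, relative to each gene's mean over the 12 animals, against that of the 9 genes, with 1 numbered point per animal. The mean of the other striatal markers follows the 9 along a line, and that of cholinergic markers follows with more scatter. The mean of excitatory markers runs the other way, and that of meningeal markers has an r of 0.0386.

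Genes of the same biochemical families are given next for Q140 against WT animals. With the name prefix as a covariate the comparison called 134 genes in all, and with the animal number as a block 1 gene, so nearly all calls of listed genes here and above are lost under that block. The block fit compares genotypes only within animal numbers 161 and 150, so a call lost there does not show that the difference is absent. Of 22 further genes of the DARPP-32 and protein kinase A pathway 9 fell, 0 rose and 13 did not pass, where 6.69% of all genes tested were called lower. They were led by the cyclic AMP-regulated phosphoproteins Arpp19 (-0.44, adjusted p = 0.000116) and Arpp21 (-0.50, adjusted p = 0.000117) and the phosphatase inhibitor Ppp1r1a (-0.42, adjusted p = 0.00124). The kinase catalytic genes Prkaca (-0.03) and Prkacb (0.02) did not pass (adjusted p = 0.761 and 0.868). The mean of this list had an r of 0.188 with the 9 (0.278 without WT 6). Most of these genes are expressed throughout the forebrain.

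Of 8 further adenylyl cyclases 2 fell, Adcy8 (-0.23, adjusted p = 0.0400) and Adcy6 (-0.20, adjusted p = 0.0420), 0 rose and 6 did not pass, where 6.69% of all genes tested were called lower. Among 17 further cyclic nucleotide phosphodiesterases, Pde7a (-0.24, adjusted p = 0.0220) and Pde2a (-0.27, adjusted p = 0.0319) fell and 15 did not pass, a share near the 11.2% of all genes called, and the list mean had an r of 0.829 with the 9 (0.879 without WT 6). Among 6 partners and relatives of Rgs9, 3 fell, 0 rose and 3 did not pass, against the same 6.69% of all genes. The R7 regulators Rgs7 (-0.38, adjusted p = 0.000239), Rgs6 (-0.48, adjusted p = 0.00688) and Rgs11 (-0.48, adjusted p = 0.00942) fell, while their obligate beta subunit Gnb5 stood at 0.01 (adjusted p = 0.924). The values of Rgs11, which shares exon sequence with Arhgdig on the opposite strand, and of Pde2a, which has a further row under its symbol, are uncertain.

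Of 19 further G protein subunits 4 rose, 0 fell and 15 did not pass, where 4.50% of all genes tested were called higher; on log2 FPKM the split over all genes turned to more calls higher (1570) than lower (751). The gamma subunit genes Gng11 (0.78, adjusted p = 0.000753), Gng8 (0.61, adjusted p = 0.0272) and Gng4 (0.25, adjusted p = 0.0481) rose with the inhibitory alpha subunit Gnai2 (0.20, adjusted p = 0.0232), and the list mean had an r of -0.909 with the 9 (-0.787 without WT 6). Of 5 further dopamine and adenosine receptors none passed. The A1 adenosine receptor Adora1, the most abundant, had 188 CPM in Q140 animals and 192 CPM in WT animals (-0.04, adjusted p = 0.762), and the D3 receptor Drd3, of the ventral striatum, 1.71 and 1.22 CPM (0.44, adjusted p = 0.570), with the list mean at an r of 0.92 (0.834 without WT 6).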

How the data were processed

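RNA-seq of piriform cortex from 6 Q140 heterozygous and 6 wild-type mice was analysed from the deposited tables. The authors deposited whole-number read counts per gene and, made from them, FPKM. Alignment and counting tools named in the submitters' processing notes were HTSeq 0.12.3, SAMtools 1.10 and STAR 2.7.5c; the strand setting is not given in the sources used here. Total counts were 19587208 to 35198602 per animal.

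Counts were tested with edgeR 4.0.16 (quasi-likelihood test, TMM, default filter by genotype, R 4.3.3), with sex as a covariate for genotype. Contrasts by sex came from a model of 4 groups. Adjusted p-values are two-sided Benjamini-Hochberg values over 17725 genes, with a threshold of 0.05. Correlations used log2 CPM with a prior count of 2. Neighbouring FPKM levels were compared by exact sign-flip tests. The scripts were tested on simulated data. Alternatives were other size factors and filters, DESeq2 1.42.0, limma 3.58.1 (voom, and log2 FPKM with pseudocounts of 0.1 and 1), covariates and each animal left out.

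The 9 genes, the marker lists and the tests were chosen with earlier results of these data known. Named genes were all 9; of each list, up to 3 genes by smallest p and those that passed, not all of which are given; and the 10 highest and 5 lowest correlations with the mean of the 9, with the most like gene of each, some of which are not reported here. Some further list members are named for their values, chosen after those were seen. Promoter sequences are from RefSeq (GRCm38.p6).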

Additional observations from a re-analysis of the deposited data

How the results depend on the processing

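None of the 9 genes passed in Q140 against WT animals under other size factors, filters, DESeq2, voom, log2 FPKM or no sex covariate. Calls over all genes were 1982 in the reported fit, 2461 by DESeq2, 2497 by voom, 134 with name prefix and 1 with animal number as covariates (0 of the 9 in both) and 363 with the excitatory covariate; leaving out 1 animal gave 1139 to 2504. Log2 FPKM turned the split of higher and lower calls from 797 and 1185 to 1570 and 751 (pseudocount 0.1) or 1568 and 743 (pseudocount 1). Of the 9, 5 passed with the striatal covariate, 5 with the excitatory covariate and 7 with the added covariate of the 20 striatal markers that did not pass, which were picked by the outcome of the same test and so support no call, and 0 to 2 with 1 animal left out. The calls without WT 6 rest on fewer samples; the cause of the other changes was not tested. The median pair correlation was 0.939 to 0.960 with 1 animal left out and 0.912 in Q140 animals alone.

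Drd2 turned above 0 with voom (0.0786), log2 FPKM (0.42 and 0.26 with pseudocounts of 0.1 and 1), prefix (0.0378), animal number (0.69) and both striatal covariates (0.36 and 0.0599), and ranged from -0.45 to 0.27 with 1 animal left out, turning without Q140 6 (0.0161), WT 2 (0.27) or WT 5 (0.25). Adora2a turned with log2 FPKM (0.0616) and animal number (0.25), and Rgs9 (0.0302), Adcy5 (0.0751) and Pde1b (0.0156) with animal number; Gng7 turned to -0.42 with the excitatory covariate. No paired analysis was possible because the replicate numbers follow accession order and pair no animals, other than the fit by animal number above. That fit compares genotypes within numbers 161 and 150 alone.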
